A study of Equus caballus with 4 samples.

Results

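CALCB and PMP22 were read on a horse expression array in equine sarcoids, which are skin tumours rich in fibroblasts, and in skin taken away from the tumour in the same animals. They are 2 genes among the 19607 targets tested, and they were picked with the difference between sarcoid and skin already known from these data. Every probe whose RefSeq transcript belongs to either gene was taken, which gave 7 of the 43603 probes on the array, 1 for CALCB (transcript NM_001081928) and 6 for PMP22 (transcript NM_001081936). Each of 4 horses gave 1 two-colour array, with RNA of its sarcoid in the Cy3 channel and RNA of its own distant skin in the Cy5 channel, so there are 4 sarcoids and 4 skins in 4 pairs. The labels give no age, breed, treatment or body site, and the free text of 3 samples mentions embryonic stem cells, against their own tissue fields, which were used here. The arrays lay on 1 slide scanned on 1 day and 0 were dye-swapped, which leaves any dye bias of a probe inside its ratio. A log2 ratio below is always sarcoid over skin within a horse, and a log2 level is the normalized intensity of 1 probe in 1 tissue, put on a scale shared by the 4 arrays. Between 67.2% and 78.4% of the probe spots in the sarcoid channel, and between 74.8% and 80.7% in the skin channel, were well above background.

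CALCB encodes the precursor of a calcitonin gene-related peptide (CGRP). CGRP peptides are made by sensory neurons, released from their endings in the skin, and widen blood vessels through a receptor built from CALCRL and RAMP1; in human skin keratinocytes also make the beta form, which is the product of CALCB. PMP22 encodes peripheral myelin protein 22, a small membrane protein of the compact myelin that Schwann cells wrap around axons. PMP22 was also found in mouse fibroblasts as a gene switched on when growth stops, and it belongs to a family with the epithelial membrane proteins and, more distantly, the claudins. In bulk tissue, fewer cells of a type and less RNA per cell cannot be told apart.

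CALCB was far lower in every sarcoid than in the skin of the same horse. For horses 1 to 4 the log2 level of CALCB was 7.78, 9.94, 7.77 and 8.71 in the sarcoids, against 12.33, 14.38, 11.97 and 13.06 in the skins. The highest sarcoid lay below the lowest skin, so the tissues did not overlap. The log2 ratios were -4.55, -4.44, -4.19 and -4.36, with a mean of -4.38 ± 0.15 (SD, n = 4), a linear fold of 20.9 for skin over sarcoid. Among all targets measured on every array, 13.1% had their 4 sarcoid levels below their 4 skin levels. CALCB was chosen for this difference, so these values are a description and carry no test.

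**Figure D1:**
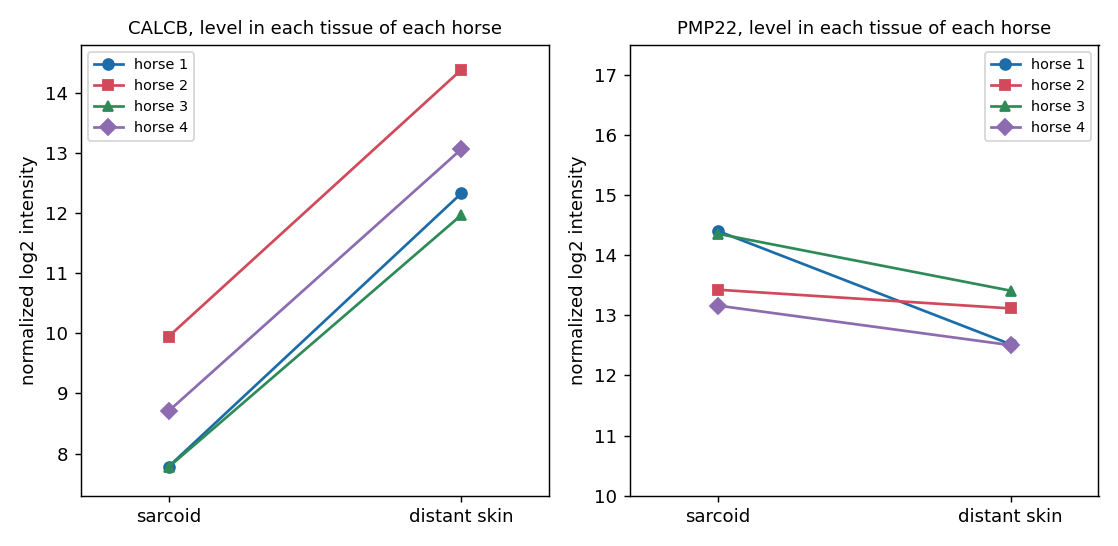
Normalized log2 intensity (vertical axes, each gene with its own range of the same width) of CALCB (left) and of the PMP22 probe of highest mean intensity (right) in the sarcoid and the distant skin of each horse; a line joins the tissues of 1 horse. The CALCB lines run nearly parallel, with sarcoids at 7.77 to 9.94 and skins at 11.97 to 14.38, and the PMP22 sarcoids at 13.16 to 14.40 overlap the skins at 12.50 to 13.41.

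The signal behind the CALCB values was well above background in both tissues of all 4 horses, with 0 saturated and 0 outlier spots. As scanned, the CALCB spot read 212, 674.5, 212 and 313 intensity units in the sarcoids over local backgrounds of 20 to 23, against 4527, 27965, 4964 and 14190 in the skins over local backgrounds of 46.5 to 47.5. The skin of horse 2 had the highest CALCB reading, while the median signal of all probes in the skin channel was 222 in that horse and 162, 220 and 236 in horses 1, 3 and 4. CALCB rests on 1 probe on the array, and whether it also binds transcripts of the related gene CALCA was not tested.

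CALCB differed widely between animals while its ratio hardly did. The level spanned 2.17 on the log2 scale over the 4 sarcoids and 2.42 over the 4 skins, which are linear ranges of 4.50 and 5.34, whereas the log2 ratio spanned only 0.35. The horses fell in the same order in both tissues, horse 2 highest, then horse 4, horse 1 and horse 3, although horses 1 and 3 were within 0.01 of each other in the sarcoids. With levels this wide and a ratio this narrow a shared order largely follows, so it is no separate observation. Of the 120 targets with complete data and a mean log2 ratio at or below -4, 25 had the same order of horses in both tissues, against 9.97% of all targets. Of the same 120 targets, 23 had a skin range at least as wide as that of CALCB, and the median range was 1.62 in the sarcoids and 1.29 in the skins. Only 7 of the 120 had a smaller SD of the log2 ratio than CALCB as processed here, and that SD moved with the processing (below). Over all targets 14.2% had a smaller SD.

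Among the 791 targets with a gene symbol CALCB had the sixth-lowest log2 ratio (rank 6 from the lowest), and rank 80 from the lowest among all 19607. Its neighbour below was KRT15, a keratin of basal keratinocytes and hair follicle stem cells, at -5.12 ± 0.11 (SD, n = 4), and the 4 ratios of KRT15, from -5.21 to -4.99, did not overlap those of CALCB. Its neighbour above was HSD3B2, a steroid-forming enzyme, at -4.32 ± 0.37, with ratios from -4.71 to -3.90 that did overlap. PMP22 stood at rank 70 from the highest among targets with a symbol and at rank 1078 among all. Its neighbours ANGPTL2, a secreted angiopoietin-like protein, at 0.94 ± 1.47 and OAS2, an interferon-induced antiviral enzyme, at 0.97 ± 0.73 overlapped it widely.

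**Figure D2:**
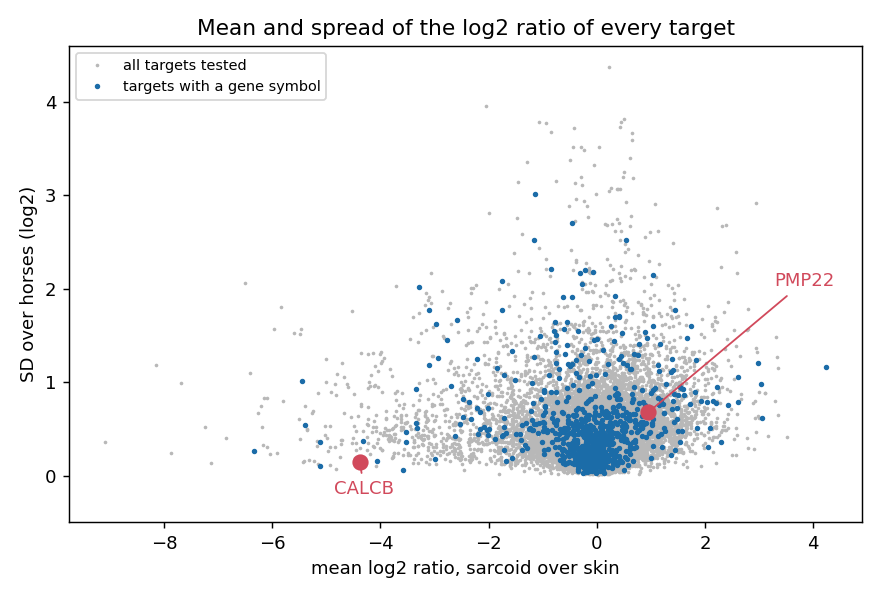
Mean log2 ratio of sarcoid over skin (horizontal axis) and its SD over the 4 horses (vertical axis, log2) for every target tested in grey and for the targets with a gene symbol in blue. CALCB in red sits low on the left, at -4.38 with an SD of 0.15, and PMP22 in red sits within the main cloud on the right, at 0.95 with an SD of 0.68.

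PMP22 was moderately higher in the sarcoids, by an amount that differed between horses. Its probe of highest mean intensity, A_69_P106526, stands for the gene. For horses 1 to 4 its log2 level was 14.40, 13.42, 14.36 and 13.16 in the sarcoids, against 12.52, 13.11, 13.41 and 12.50 in the skins. The log2 ratios were 1.89, 0.31, 0.95 and 0.66, with a mean of 0.95 ± 0.68 (SD, n = 4), a linear fold of 1.93 for sarcoid over skin. Each sarcoid was above its own skin, but the levels of the tissues overlapped, since the sarcoid of horse 4 lay below the skin of horse 3. Among all targets measured on every array, 8.07% had their 4 sarcoid levels above their 4 skin levels. As with CALCB, no test is given, because the gene was chosen with its difference known.

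In horses 2 and 4 the scanned PMP22 reading and the normalized ratio pointed in opposite directions. As scanned, PMP22 read 18745.5, 7337, 15703 and 7017 intensity units in the sarcoids, against 5608.5, 11895, 14876 and 9776.5 in the skins, so the raw sarcoid reading was the lower in horses 2 and 4. The median signal of all probes was also lower in the sarcoid channel of these horses, at 153 and 113.5 in the sarcoids against 222 and 236 in the skins. Centring each array on its median without the intensity-dependent loess curve left horse 2 at -0.27, horse 4 at 0.22 and the mean at 0.49 ± 0.84 (SD, n = 4). With the signals that the scanner software had background-subtracted and dye-normalized, the mean was 0.92 ± 0.64 and all 4 horses were above 0.

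The other 5 PMP22 probes gave the same sign, and how their size compared with A_69_P106526 depended on the setting. Their mean log2 ratios were 0.76 ± 0.52, 0.86 ± 0.63, 0.76 ± 0.53, 0.76 ± 0.55 and 0.86 ± 0.57 for A_69_P001456, A_69_P001457, A_69_P001458, A_69_P001459 and A_69_P001460 in turn (SD, n = 4). All 24 values of 6 probes in 4 horses were above 0 with loess, and 18 of 24 on median centring, where all 6 probes of horse 2 were below 0. With the scanner software's own signals the 5 means were larger than that of A_69_P106526, 1.15 to 1.18 against 0.92, as they were on median centring, 0.56 to 0.63 against 0.49. These probes target 1 transcript and share the RNA of each array, so they are repeat readings and not replicates.

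The probes parted over horses 3 and 4. In horse 3 the other 5 probes read from 0.48 to 0.54, below the 0.95 of A_69_P106526, and in horse 4 they read from 0.93 to 1.05, above its 0.66. In horse 1 they ran from 1.38 to 1.65 and in horse 2 from 0.16 to 0.27. The gap between A_69_P106526 and the mean of the others was 0.40, 0.11, 0.44 and -0.34 in horses 1 to 4, while the SD among the 5 was at most 0.12 in any horse. These gaps also moved with the setting. With the scanner software's own signals A_69_P106526 read 1.81 in horse 1 and 0.87 in horse 3, near the 1.80 to 1.92 and 0.79 to 0.82 of the others, and 0.72 in horse 4, below their 1.52 to 1.65. In all 5 settings compared, horse 1 was highest and horse 2 lowest on every probe, and horse 3 lay above horse 4 on A_69_P106526 and below it on the others. The other 5 probes were also far dimmer, with mean log2 levels of 8.80 to 9.42 in the sarcoids and 8.05 to 8.56 in the skins. A_69_P106526 had mean log2 levels of 13.84 in the sarcoids and 12.89 in the skins. Whether the probes recognise different transcript forms was not tested.

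**Figure D3:**
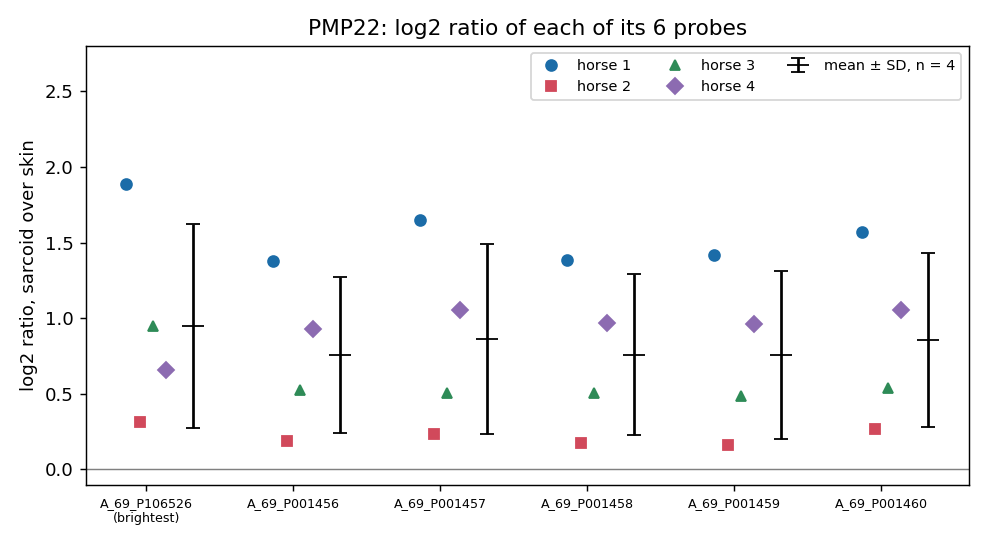
Log2 ratio of sarcoid over skin (vertical axis) for each of the 6 PMP22 probes (horizontal axis, the probe of highest mean intensity first); symbols are horses and bars are mean ± SD over 4 horses. Horse 1 is highest and horse 2 lowest on all 6 probes, and horse 4 lies above horse 3 on all but the first.

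Other genes of the same pathways were read from lists of known members, tested in limma over all 19607 targets with Benjamini-Hochberg adjustment. At an adjusted p under 0.05, 15.7% of all targets passed, 5.84% higher and 9.90% lower in the sarcoids. Among the 791 targets with a symbol, from which all list genes come, 19.6% passed. CALCB was among those that passed and PMP22 was not, from which nothing is read, since both were chosen from this contrast. Of the 50 genes reported from all lists, leaving out CALCB and PMP22, 12 were higher and 11 lower. With outlier spots left out only after the background model had been fitted, 5 of the 50 passed, against 23 here.

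Of the calcitonin family peptides, CALCA and ADM could be tested. CALCA, which encodes calcitonin and the alpha form of CGRP, passed as lower in the sarcoids (limma adjusted p = 0.0332). The sarcoid signal was well above background on 0 of 4 arrays. CALCA therefore entered the test through its skin signal alone, which largely sets the direction of its ratio. Its log2 level in the skins of horses 1 to 4 was 6.61, 6.73, 7.65 and 7.59. On the mean over the 4 horses, and not in each horse, the skins were at least 1.83-fold above the lowest level measurable in the sarcoids. The CALCA call held in only 5 of 12 alternatives (limma adjusted p from 0.017 to 0.327). It was lost without horse 1, 2 or 4 (0.0702, 0.084 and 0.0923). It was also lost on the mean of the 5 CALCA probes kept (limma adjusted p = 0.0536). ADM, which encodes the vasodilator peptide adrenomedullin, did not pass (limma adjusted p = 0.805), and its log2 ratios of -1.60, 0.88, -3.62 and 2.51 in horses 1 to 4 ran in opposite directions. The means of the 4 ADM probes ran from -0.50 to -0.34 (without horse 3, ADM was at 0.60), but the probes parted within horses. ADM probe A_69_P003206 read -1.85 in horse 3 and 0.03 in horse 4, where the other 3 read -3.75 to -3.62 and 2.51 to 2.71. No gene of the CGRP receptor list, CALCRL and RAMP1 included, could be followed by name here.

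Genes of peptide handling and of nerve fibres were few. PAM, the enzyme that amidates CGRP and other peptides, was at 0.39 ± 0.74 (SD, n = 4) and did not pass (limma adjusted p = 0.43; -0.068 on median centring). CHGA and SCG2, proteins of secretory granules, were on the array but not detected often enough to be tested. From the neuropeptide list 0 of 4 genes passed, and the lowest p values were those of MC1R, a melanocortin receptor, at -0.30 ± 0.20 and EDN1, endothelin 1, at -0.75 ± 0.90. BDNF, a neurotrophin, was at -0.92 ± 0.49 and passed (limma adjusted p = 0.0414), but the call was lost without any single horse (0.0519, 0.129, 0.0841 and 0.103 without horses 1 to 4) and it passed in 4 of 12 alternatives in all (0.009 to 0.343). Its sarcoid signal was detected above background in 2 of 4 horses, and its log2 ratio was -2.26 with the scanner software's own signals and -0.34 with outlier spots kept, so its size is uncertain.

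UCHL1, a ubiquitin hydrolase used to stain nerve fibres in skin, was the 1 gene of the axon list that passed. Its log2 level was 6.56, 6.90, 7.18 and 7.48 in the sarcoids of horses 1 to 4, against 9.77, 9.41, 9.37 and 10.07 in the skins, so the tissues did not overlap. It fell by 2.63 ± 0.43 on the log2 scale (SD, n = 4; limma adjusted p = 0.00121), and the means of its 5 probes lay between -2.63 and -2.35. It passed with each horse left out (limma adjusted p up to 0.0104) and missed the threshold when outlier spots entered the background fit (0.252, log2 ratio -1.70; 12 alternatives from 0.000342 to 0.253). The remaining 2 measured genes of this list, both sodium channels, did not pass.

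The myelin gene reported beside PMP22 did not pass. GJB1, a gap junction protein of myelinating Schwann cells detected above background in 2 of 4 sarcoids, was at -0.73 ± 0.59 (SD, n = 4; limma adjusted p = 0.108), with log2 ratios of 0.10, -1.22, -1.09 and -0.73, and without horse 1 it was at -1.01 (0.0419; 12 alternatives up to 0.507). The only Schwann cell gene with a named probe, GFAP, was detected above background in 0 sarcoids and 1 skin and could not be tested; SOX10 and S100B were not analysed here. CLDN12, the only claudin measured, was at -0.01 ± 0.25 (limma adjusted p = 0.975), a sign that flips with the background settings, with the scanner software's own signals and without horse 2.

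**Figure D4:**
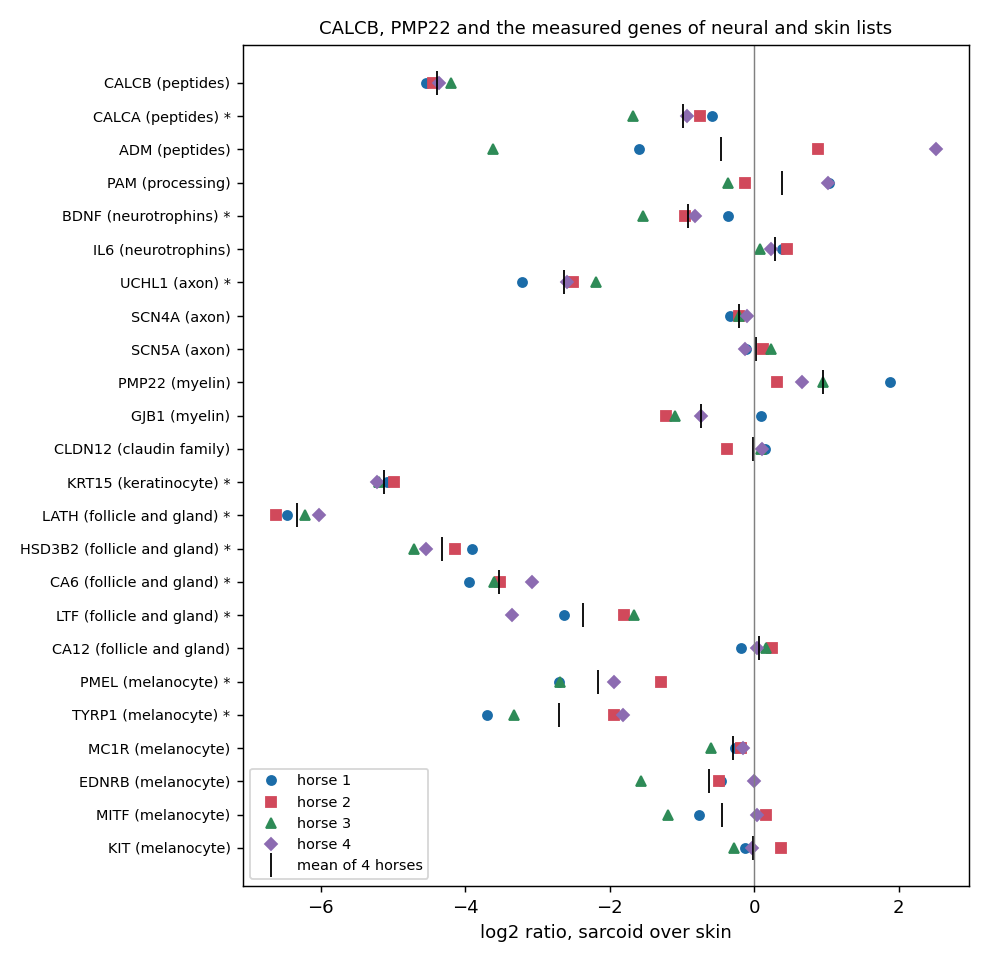
Log2 ratio of sarcoid over skin (horizontal axis) in each horse for CALCB, PMP22 and measured list genes. The lists drawn are calcitonin peptides, peptide processing, neurotrophins, axon, myelin, claudin family, keratinocyte, follicle and gland, and melanocyte. The neuropeptide list was left out, except MC1R, which is also on the melanocyte list. The black tick is the mean of 4 horses. An asterisk marks a gene other than CALCB and PMP22 with a limma adjusted p under 0.05. CALCB is at -4.38 and PMP22 at 0.95. The keratinocyte gene KRT15 is at -5.12, and the means of the follicle and gland genes run from -6.33 to 0.06. The sarcoid signals of CALCA, SCN4A and TYRP1 were well above background on 0 arrays, which makes their points no measured sizes.

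The tissues also differed in markers of several cell types. The keratinocyte gene KRT15 was lower, and of 5 hair follicle and gland genes 4 were lower, among them LATH, the surfactant of horse sweat, and CA6, a secreted carbonic anhydrase. The log2 level of KRT15 was 8.82 to 9.95 in the sarcoids and 14.03 to 15.03 in the skins, and the mean over the follicle and gland genes was 7.86 to 8.99 in the sarcoids and 11.03 to 12.38 in the skins. All 10 fibroblast genes measured, which include LUM, BGN, DCN and COL5A2, were higher, with a mean log2 level of 14.23 to 14.69 in the sarcoids and 11.69 to 12.41 in the skins. Of 6 melanocyte genes 2 were lower, PMEL and TYRP1, and TYRP1 was detected above background in 0 of 4 sarcoids. The melanocyte mean was 7.27 to 7.89 in the sarcoids and 8.46 to 8.88 in the skins. The leukocyte genes gave 1 higher of 6 (CSF1R) and the endothelial and mural genes 1 higher of 5 (VCAM1). The skeletal muscle genes gave 1 lower of 4 (MB, detected above background in 0 of 4 sarcoids). Among all targets with a symbol 19.6% passed, so no difference in leukocytes, vessels or muscle is read from such small counts. TYRP1 and MB entered the test through their skin signal alone, which largely sets their direction. CSF1R and MB each lost the call in 5 of 12 alternatives (limma adjusted p up to 0.265 and 0.32). Leaving out horse 2 or 3 was among them for CSF1R (limma adjusted p = 0.0676 and 0.0503). For MB, leaving out horse 1, 2 or 3 was (limma adjusted p = 0.0855, 0.0607 and 0.066). CA6, HSD3B2, COL5A2, PMEL, TYRP1 and VCAM1 each lost it in 2 of 12, where outlier spots entered the background fit. LTF, a further gland gene, lost it in 3 of 12 and DCN in 1, on median centring. KRT15, LATH, LUM and BGN kept it in all 12. The part of these cell types in the CALCB and PMP22 values was not tested.

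The genes most like CALCB were sought by the root mean square difference of the 4 log2 ratios, a description over 4 arrays. The nearest with a symbol were the glucose transporter SLC5A1 (0.40 away), HSD3B2 (0.45), KRT15 (0.76), the protease inhibitor SPINK7 (0.81) and the epidermal antimicrobial protein S100A7 (0.81), and the nearest without a symbol was LOC100034242 (0.20). Within 0.5 on this scale lay 2 targets with a symbol and 24 targets in all. Likeness in the ratio did not always extend to the levels between animals. HSD3B2 spanned 2.00 in the sarcoids and 1.76 in the skins, somewhat less than CALCB, and was highest in horse 1 in both tissues. SLC5A1 spanned 0.91 in the sarcoids and 0.95 in the skins and was highest in horse 1 in both tissues, where CALCB was highest in horse 2. S100A7 spanned 2.70 in the sarcoids and 3.30 in the skins, wider than CALCB, and was highest in horse 4.

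For PMP22 the nearest with a symbol were PRKAG3 (0.24 away), a subunit of AMP-activated kinase, ATRAID (0.24), a gene induced by retinoic acid, IFT27 (0.31), a protein of ciliary transport, ARF2 (0.33), a small GTPase of vesicle traffic, and PPIB (0.36), a prolyl isomerase of the endoplasmic reticulum that acts on procollagen. The nearest without a symbol was ENSECAT00000024204 (0.14). Within 0.5 lay 14 targets with a symbol and 397 in all. Of the nearest genes named, IFT27 and ARF2 passed as higher (limma adjusted p = 0.0407 and 0.0305). That direction follows from choosing genes with ratios near those of PMP22, so nothing is read from it. Each lost its call in many alternatives, 9 of 12 for IFT27 and 6 of 12 for ARF2 (limma adjusted p up to 0.33 and 0.338).

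CALCB kept its sign in every horse under each of 5 settings, but its size in horse 3 did not hold where outlier spots entered the background fit. With those spots left out only after the fit, the log2 ratio was -1.51 in horse 3 and -3.86 in horse 2, against -4.55 and -4.36 in horses 1 and 4, with a mean of -3.57 ± 1.40 (SD, n = 4). The small spread of CALCB between horses therefore belongs to some settings only. Its SD was 0.15 as reported and 0.17 without background correction. It was 0.27 on median centring and 0.31 with the scanner software's own signals. With the scanner software's own signals the ratio was -5.16 in horse 1 and between -4.56 and -4.52 in the other horses. PMP22 on A_69_P106526 moved little with the background model and most with the normalization. The other 5 probes also moved with the background model, to 0.10 to 0.16 in horse 3 and 0.05 to 0.10 in horse 2 with those spots in the fit, against 0.48 to 0.54 and 0.16 to 0.27 without them.

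**Figure D5:**
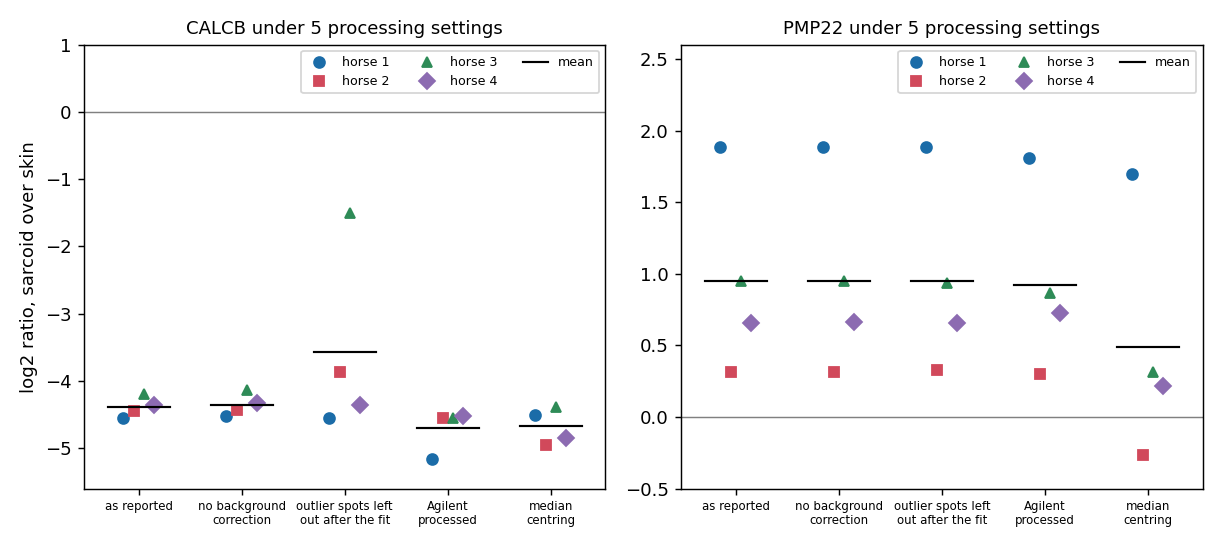
Log2 ratio of sarcoid over skin (vertical axes, different ranges) of CALCB (left) and of the PMP22 probe of highest mean intensity (right) in each horse under 5 processing settings; black lines are means over 4 horses. CALCB of horse 3 is at -1.51 when outlier spots enter the background fit and between -4.56 and -4.14 otherwise, and PMP22 of horse 2 is at -0.27 on median centring.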

How the data were processed

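The authors' deposited scanner files give each spot's median intensity and local background, linear and for both dyes (per the file headers). The submitters' processing notes name Agilent Feature Extraction 11.5.1.1. Per the file headers, that software had subtracted a background from its processed intensity values and normalized the dyes. The deposited log10 ratios are Cy5 (skin) over Cy3 (sarcoid), and the authors' value table holds the same log10 values (largest difference 0; medians 0, -0.00262, -0.0118 and 0 for horses 1 to 4). Flags of other kinds are 0 or 1 per spot.

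Spots marked as non-uniform or population outliers, or with a non-uniform background, were left out before normexp (offset 50), a choice settled with results known. Loess within arrays gave control spots weight 0 (limma 3.58.1, R 4.3.3). Levels were put on a common scale with Aquantile. A probe was kept if 1 channel or the other was well above background on 3 or more of the 4 arrays, and the probe of highest mean intensity stood for a target. lmFit and eBayes set the 4 ratios against 0 (Benjamini-Hochberg over all targets), after a check on simulated ratios. Of 3437 probes with a RefSeq accession 2332 matched the horse gene table (1031 symbols, identifiers starting with LOC included); other probes were not named, and 5.35% of probes have a name. No coordinates are given, since the array and the table use different builds, and no sequence was at hand. A level bound uses the lowest signal well above background on each array.

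CALCB, PMP22 and all gene lists were chosen with earlier results of these data known. Some list genes are not reported here and were left out of the counts. Genes named are all other measured members of the calcitonin peptide, receptor, myelin, Schwann and claudin lists, up to 4 passing members of each other list (or 2 with the lowest p), the 5 nearest with a symbol and 1 without, and the neighbours in rank. SCN4A and others shown only in the plot of lists were drawn as measured list members. The number of arrays limits precision. The limma p-values set a mean ratio against the spread between these 4 horses, which eBayes adjusts using all targets. They also take in any dye bias, since no array was dye-swapped.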

Additional observations from a re-analysis of the deposited data

Results flagged for a closer look

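In 56 sets of 4 arrays (each probe of CALCB and PMP22 in its ratio and both levels, and each named gene in its ratio), 3 held 1 horse far from the other 3 by Dixon's criterion, where chance gives about 1 in 20. None of them was a value of CALCB or PMP22. For BGN horse 1 was at a log2 ratio of 3.98, the others between 2.67 and 2.85. For CLDN12 horse 2 was at -0.38, the others between 0.09 and 0.14. For OAS2 horse 3 was at -0.13, the others between 1.28 and 1.39.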

How the results depend on the processing

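The mean log2 ratio of CALCB stayed below 0 and that of PMP22 above 0 under each alternative tried. CALCB was at -3.57 with outlier spots left out after the background fit and also with them kept, at -4.69 with Agilent's processed signals and in the authors' value table, and at -4.67 on median centring; with 1 horse left out it ran from -4.45 to -4.33. PMP22 moved by less than its SD throughout, from 0.49 on median centring to 1.16 without horse 2 (0.64 without horse 1), with 0.80 as the mean of its 5 other probes, an alternative chosen after seeing the data. Over all targets 93 were higher and 147 lower with outlier spots left out after the fit, 94 and 147 with them kept, and 5 list genes passed in either case. Agilent's signals gave 1887 higher (48.2% of calls, against 37.1% here), median centring 614 (18.7%), and an adjusted p under 0.01 left 253 higher and 864 lower. With 1 horse left out, 389 to 821 were higher, 1071 to 1412 lower, and 16 to 21 list genes passed. Without horse 1, 26.6% of calls were higher. With channels modelled separately and no replicate block, which drops the pairing by horse, 928 were higher and 1760 lower. Signs that turned, none of a gene that passed, were those of ADM without horse 3 (0.60; -1.44 to 0.60 over horses left out), PAM on median centring (-0.068) and CLDN12, at 0.0088 without background correction, 0.052 with outlier spots kept or left out later, 0.17 with Agilent's signals and 0.11 without horse 2 (-0.060 without horse 1). Of 23 named genes that passed, 18 were lost with outlier spots in the background fit. The cause of these shifts was not tested.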
